A study of Mus musculus with 12 samples.

Results

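The opioid receptor family of the mouse consists of 4 genes, Oprm1, Oprd1, Oprk1 and Oprl1, which encode the mu, delta, kappa and nociceptin receptors. The members were the rows of the deposited table that carry these 4 symbols, out of 24490 rows in all, and each symbol had 1 row. They were followed across intact dorsal root ganglia (DRG), acutely dissociated, unsorted DRG and MACS-sorted DRG, with 4 samples of each preparation. All samples came from adult C57Bl/6 mice, used directly ex vivo, and the methods of the study give them as male with ganglia taken from all levels. An intact sample was 1 mouse, an unsorted sample was a pool of 2 mice, and a MACS-sorted sample was a pool of 8 mice. Unsorted samples had been digested with dispase, collagenase and DNAse, triturated and passed through a filter. MACS-sorted samples had then also been labelled with a cocktail of antibodies against non-neuronal cells and run through a magnetic column that retains the labelled cells, so that what flows through is enriched for neurons.

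Opioid receptors are G protein-coupled receptors that act through inhibitory G proteins. Their activation lowers adenylyl cyclase activity, reduces opening of the presynaptic calcium channels that drive transmitter release, and opens inwardly rectifying potassium channels. In primary sensory neurons, whose cell bodies lie in the DRG, they are carried to the central and peripheral endings, where they limit the release of transmitter from pain fibres. The mu receptor is the main target of morphine, the delta receptor prefers enkephalins, the kappa receptor prefers dynorphins, and the nociceptin receptor is related in sequence but binds its own peptide, nociceptin.

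In mm10, Oprm1 lies on chromosome 10 from 6788601 to 7038209 on the plus strand, Oprd1 on chromosome 4 from 132110726 to 132144486 on the minus strand, Oprk1 on chromosome 1 from 5588493 to 5606133 on the plus strand, and Oprl1 on chromosome 2 from 181715016 to 181720985 on the plus strand. GENCODE lists 31 transcripts of Oprm1, 11 of Oprl1, 5 of Oprk1 and 1 of Oprd1, and the deposited table holds 1 value per gene. The deposited Oprm1 region starts downstream of the GENCODE gene, which starts at 6758506, and which of its transcripts entered the FPKM is not given in the sources used here, so the Oprm1 window belongs to the start in the table and not to every promoter of the gene. The 250 bases before the start site were available for 3 of the 4 genes in RefSeq (build GRCm38.p6), not for Oprk1. The windows of Oprd1 and Oprl1 are shown because both genes fell in MACS-sorted DRG, and that of Oprm1 because no such fall was seen. Where RefSeq has several start sites, the one nearest the start in the deposited table was taken, which was 25 bases away for Oprm1 and identical for the others. Capitals mark matches on either strand to 4 short promoter motifs, and no matches overlap. The GC box was searched as GGGCGG. The CCAAT box was searched by the letters of its name. The letters searched for the TATA box were TATAAA. The E-box stood for CACGTG.
Oprd1, chr4:132144487-132144736, minus strand: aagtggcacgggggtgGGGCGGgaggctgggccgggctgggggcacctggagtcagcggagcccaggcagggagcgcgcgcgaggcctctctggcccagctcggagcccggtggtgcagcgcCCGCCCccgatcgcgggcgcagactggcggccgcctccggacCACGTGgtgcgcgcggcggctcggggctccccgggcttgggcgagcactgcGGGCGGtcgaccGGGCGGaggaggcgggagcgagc
Oprl1, chr2:181714766-181715015, plus strand: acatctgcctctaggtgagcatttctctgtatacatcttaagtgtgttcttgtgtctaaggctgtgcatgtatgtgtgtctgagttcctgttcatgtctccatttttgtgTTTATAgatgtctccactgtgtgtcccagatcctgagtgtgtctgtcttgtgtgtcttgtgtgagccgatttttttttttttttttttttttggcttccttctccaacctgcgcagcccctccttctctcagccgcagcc
Oprm1, chr10:6788326-6788575, plus strand: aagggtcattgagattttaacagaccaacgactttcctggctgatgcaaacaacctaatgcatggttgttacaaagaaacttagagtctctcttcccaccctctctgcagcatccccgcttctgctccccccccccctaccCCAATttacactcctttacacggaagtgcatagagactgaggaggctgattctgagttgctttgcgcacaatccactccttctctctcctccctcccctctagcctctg

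The 3 windows are unlike. The Oprd1 window is 80.0% G and C, higher than 98.8% of the 32526 distinct windows of this length, whose median is 52.4%, while the Oprl1 window is 44.4% and the Oprm1 window 50.8% G and C. Oprd1 has 4 GC box matches and 1 E-box match, Oprl1 has 1 TATA box match, and Oprm1 has 1 CCAAT box match. Among all windows, 33.0% hold the GC box letters, 33.8% the CCAAT letters, 12.3% the TATA letters and 6.04% the E-box letters. Oprd1 and Oprl1 share none of these 4 matches.

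The samples themselves differed in ways that touch the receptor values. From the spacing of the lowest values, depth was estimated at 13600000 to 19500000 fragments per sample. Red blood cell genes were high in all MACS-sorted samples, where the summed level of 8 rows of the red blood cell list was 1667 to 15312 FPKM, against 112 to 399 in unsorted and 266 to 736 in intact DRG. Intact replicate 1 stood apart, with the lowest level in its group of all 4 receptor genes. Its summed Schwann cell, fibroblast, peptidergic, large-diameter neuron, satellite glia, macrophage and red blood cell markers were the highest of its group. The large-diameter sum, 658 to 834 FPKM in intact DRG, leaned on Pvalb, which alone ranged from 61.8 to 441 FPKM there. That sum thus does not speak for the other large-diameter markers. Its summed non-peptidergic markers were the lowest. Its FPKM over all rows summed to 345341, against 283676 to 293648 in the other intact samples. FPKM, fragments per kilobase of transcript scaled to the number of mapped fragments, corrects for gene length and depth. Levels can thus be compared between genes as far as the transcripts assumed for each gene are right. For Oprm1 those transcripts are not given, so its rank and share among the receptor genes are less sure than its differences between preparations. In bulk RNA, fewer cells of a type and less RNA per cell cannot be told apart. The replicates are separate samples, and p-values weigh a difference against the spread between them. That spread is between single mice in intact DRG and between pools of mice in unsorted and MACS-sorted DRG.

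Oprl1 was the most abundant of the 4 in intact and unsorted DRG. In intact DRG it measured 4.36, 6.00, 6.69 and 5.82 FPKM in replicates 1 to 4 and averaged 5.72 ± 0.981 (SD, n = 4). In unsorted DRG it measured 6.35, 7.01, 7.79 and 7.42 FPKM and averaged 7.14 ± 0.618. In MACS-sorted DRG it measured 3.08, 3.50, 2.82 and 3.03 FPKM and averaged 3.11 ± 0.288. Every MACS-sorted value lay below every unsorted and every intact value, and unsorted DRG was the only preparation in which Oprl1 exceeded 5 FPKM in all 4 samples, the limit that the study sets for an expressed gene. Its mean was 2.30-fold lower in MACS-sorted than in unsorted DRG, a log2-fold change of -1.18 (standard error 0.11, limma adjusted p = 2.1e-05, by Benjamini-Hochberg over 12038 genes). Log2-fold changes are differences of log2(FPKM + 0.1) and understate the change of low genes.

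Oprd1 fell alongside it. The delta receptor gene measured 1.95, 3.36, 3.57 and 3.49 FPKM in intact DRG (3.09 ± 0.763, SD, n = 4) and 3.80, 3.97, 4.16 and 3.78 FPKM in unsorted DRG (3.93 ± 0.176). In MACS-sorted DRG it measured 1.62, 2.17, 1.62 and 1.56 FPKM (1.74 ± 0.285). All 4 MACS-sorted values lay below all 4 unsorted values, and the mean was 2.26-fold lower, with a log2-fold change of -1.14 (standard error 0.14, limma adjusted p = 1.2e-04). MACS-sorted replicate 2, the highest of its group, overlapped the intact group only through intact replicate 1.

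For Oprm1 no difference was shown. The mu receptor gene measured 2.07, 3.82, 4.44 and 4.85 FPKM in intact DRG (3.80 ± 1.23, SD, n = 4) and 3.53, 4.22, 4.77 and 3.12 FPKM in unsorted DRG (3.91 ± 0.731). In MACS-sorted DRG it measured 5.02, 3.75, 5.46 and 3.35 FPKM (4.40 ± 1.00). The 3 groups overlapped throughout. The difference between MACS-sorted and unsorted DRG was 0.16 on the log2 scale (standard error 0.19, limma adjusted p = 0.529), so neither a change nor its absence could be shown at this spread. The antisense gene Ipcef1 shares 89 exonic bases with the Oprm1 model of 2420 bases, and whether strand was used in counting is not given in the sources used here. Ipcef1 itself was at most 0.296 FPKM in any sample.

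Oprk1 had the lowest level of the family. The kappa receptor gene measured 0.534, 0.637, 0.584 and 0.567 FPKM in intact DRG (0.581 ± 0.0430, SD, n = 4), 0.967, 0.718, 0.683 and 0.635 FPKM in unsorted DRG (0.751 ± 0.148), and 0.756, 0.473, 0.960 and 0.420 FPKM in MACS-sorted DRG (0.652 ± 0.253). The MACS-sorted values overlapped both other groups, with the highest single value in unsorted replicate 1. With a mean under 1 FPKM it was below the filter of the limma fit. From the estimated 27 to 76 fragments behind each value, the counting error averaged 13.3% to 15.6% over the 4 samples of a group. The difference between MACS-sorted and unsorted DRG was -0.22 on the log2 scale (exact two-sided permutation p = 0.486, n = 4 and 4), and it turned to 0.41 under quantile normalization. No difference was shown, and the observed spread between MACS-sorted samples, a coefficient of variation of 38.7%, was larger than the counting error.

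**Figure D1:**
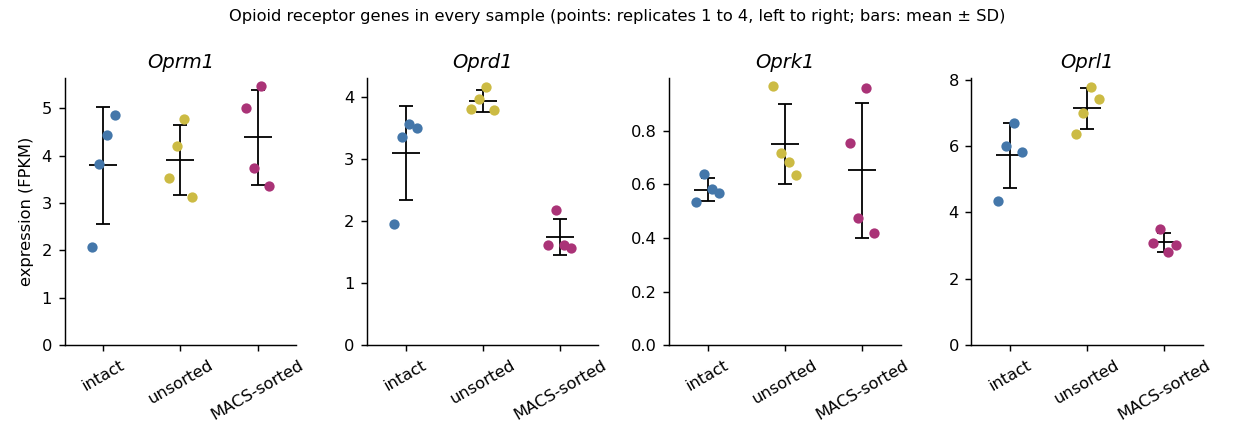
Expression in FPKM of the 4 opioid receptor genes, 1 panel per gene with its own axis from 0, in intact, unsorted and MACS-sorted DRG. Points are samples (replicates 1 to 4 from left to right) and bars are mean ± SD of 4. For Oprl1 and Oprd1 all MACS-sorted points lie below all unsorted points, while for Oprm1 and Oprk1 the groups overlap.

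Of the 3 receptor genes tested, 2 were lower in MACS-sorted than in unsorted DRG at an adjusted p under 0.05 and 0 were higher. Among all 12038 genes tested in this comparison, 27.7% were lower and 18.8% higher, so that a fall was common. The calls were thus 40.4% upward, which became 59.3% under quantile normalization, where the same number of receptor genes, 2, was lower. The same 2 genes had groups that did not overlap, as had 27.8% of all genes in that direction. The stricter rule of the study also asks that the log2 ratio of group means be beyond 0.5 and that the higher group average more than 5 FPKM. Oprl1 alone met it, as 12.5% of all genes did in the downward direction, and Oprd1 missed it through its level of 3.93 FPKM. The median log2-fold change was -1.14 over the 3 receptor genes tested and -0.04 over all genes tested.

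Between unsorted and intact DRG, none of the 3 receptor genes tested passed the threshold. The unsorted minus intact difference was 0.37 on the log2 scale for Oprd1 (standard error 0.18, limma adjusted p = 0.162), 0.33 for Oprl1 (0.13, adjusted p = 0.102) and 0.09 for Oprm1 (0.25, adjusted p = 0.822). The 3 tested genes thus gave 0 calls at an adjusted p under 0.05, against 14.8% of all genes higher and 7.79% lower. Taken singly by an exact two-sided permutation test, Oprd1 reached p = 0.0286 (n = 4 and 4), the smallest that 4 against 4 samples allow, and its groups did not overlap, as was the case for 20.8% of all genes in that direction. Oprl1 and Oprk1 each gave an exact permutation p of 0.0571, and the difference for Oprk1 was 0.31. For Oprd1 and Oprl1 these differences were smaller without intact replicate 1, where the estimate was 0.17 for Oprd1 (limma adjusted p = 0.0948), 0.21 for Oprl1 (adjusted p = 0.0884) and -0.17 for Oprm1 (adjusted p = 0.396).

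Against intact DRG, MACS-sorted DRG was again lower in Oprl1 and, less firmly, in Oprd1. Oprl1 was 1.84-fold lower in the mean, with a log2-fold change of -0.85 (standard error 0.15, limma adjusted p = 0.00205), its groups did not overlap and it met the stricter rule. Oprd1 was 1.77-fold lower, with a log2-fold change of -0.77 (0.22, limma adjusted p = 0.0235). Oprm1 differed by 0.25 (0.27, limma adjusted p = 0.517) and Oprk1 by 0.08 (exact permutation p = 0.771, n = 4 and 4). Of the 3 genes tested, 2 were lower and 0 higher, where 20.6% of all genes were lower and 14.1% higher. In the downward direction, 21.9% of all genes had groups that did not overlap and 10.7% met the stricter rule. The Oprd1 call was lost under quantile normalization, with a difference of -0.20 (limma adjusted p = 0.557), and without any of 5 single samples. Its limma adjusted p rose to 0.0689, 0.0745 and 0.0737 without intact replicates 2, 3 and 4 and to 0.0547 and 0.0604 without MACS-sorted replicates 1 and 3, while it was 0.00207 without intact replicate 1 and 0.021 and 0.0442 without MACS-sorted replicates 2 and 4.

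**Figure D2:**
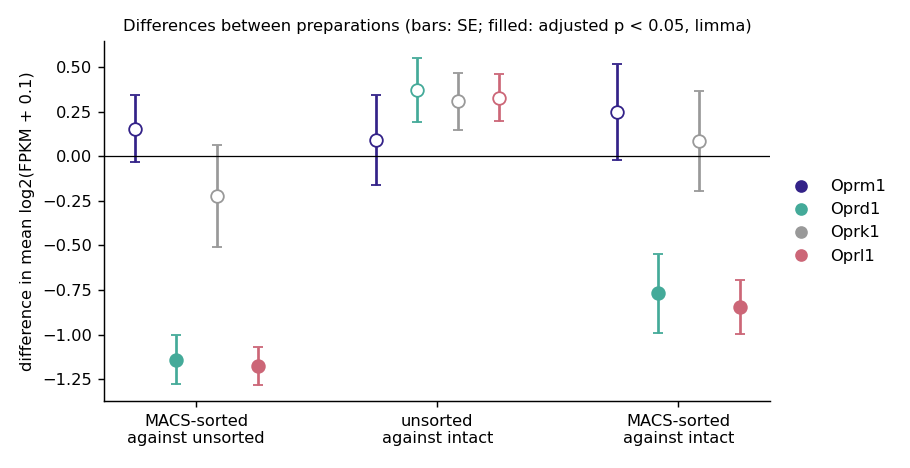
Difference in mean log2(FPKM + 0.1) between preparations for each receptor gene, with standard errors from limma (for Oprk1, from the fit without a filter) and filled symbols where the adjusted p was under 0.05. Oprd1 and Oprl1 lie near -1.14 and -1.18 in MACS-sorted against unsorted DRG, Oprm1 and Oprk1 near 0.16 and -0.22.

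The make-up of the family differed in the MACS-sorted samples. The summed level of the 4 genes was 13.2 ± 2.91 FPKM (SD, n = 4) in intact DRG, 15.7 ± 1.24 in unsorted DRG and 9.90 ± 1.09 after MACS sorting. Oprm1 accounted for 23.2%, 27.7%, 29.1% and 32.9% of this sum in intact replicates 1 to 4 and for 24.1%, 26.5%, 27.4% and 20.9% in the unsorted replicates. In the MACS-sorted replicates its share was 47.9%, 37.9%, 50.3% and 40.1%. Every MACS-sorted share of Oprm1 was above every other share of it. Oprl1 went from 43.9 ± 3.85% in intact and 45.4 ± 2.84% in unsorted to 31.7 ± 4.93% in MACS-sorted DRG, and Oprd1 from 23.3 ± 1.00% and 25.0 ± 0.851% to 17.7 ± 3.25%. Oprk1 made up 3.82% to 8.84% in all samples.

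**Figure D3:**
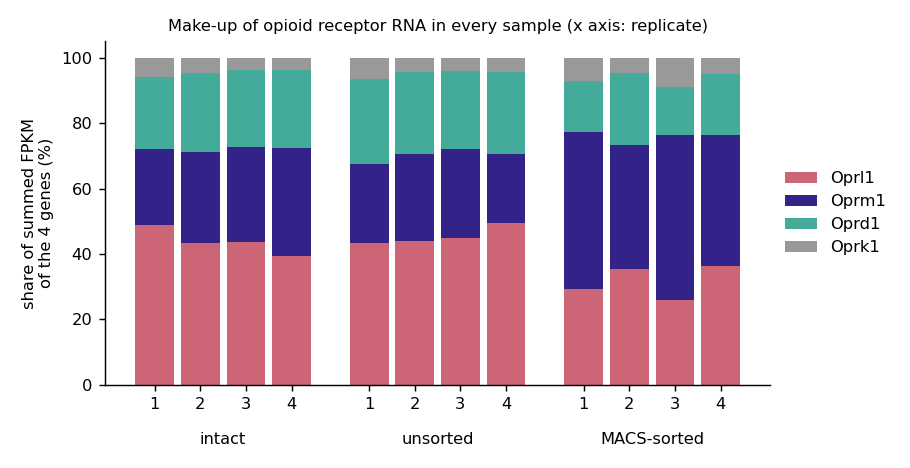
Share of each gene in the summed FPKM of the 4 opioid receptor genes, 1 bar per sample with the replicate number below it. Oprl1 is the largest part in all 8 intact and unsorted samples, and Oprm1, at 37.9% to 50.3%, in all 4 MACS-sorted samples. In MACS-sorted replicates 2 and 4 the share of Oprm1, 37.9% and 40.1%, is close to that of Oprl1, 35.4% and 36.2%.

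Ratios between 2 genes in the same sample are barely touched by a single scaling factor per sample, but quantile normalization, which rescales each value by its rank, can change them. The log2 ratio of Oprm1 to Oprl1 was -1.04, -0.64, -0.58 and -0.26 in the intact and -0.83, -0.72, -0.70 and -1.22 in the unsorted replicates, and 0.69, 0.09, 0.93 and 0.14 in the MACS-sorted replicates. Oprl1 was thus the more abundant in all 8 unsorted and intact samples and Oprm1 in all 4 MACS-sorted samples, although the FPKM ranges of these 2 genes overlap within MACS-sorted DRG. In MACS-sorted replicates 2 and 4 the lead of Oprm1, at 0.09 and 0.14, was small. The counting error estimated in that group was 8.27% for Oprm1 and 8.65% for Oprl1, so the order in these 2 samples is not secure. The group means of this ratio differed by 1.33 between MACS-sorted and unsorted DRG (standard error 0.24) and by 1.09 between MACS-sorted and intact DRG (0.26). Oprm1 to Oprd1 gave -0.02 ± 0.20 (SD, n = 4) in unsorted, 0.26 ± 0.17 in intact and 1.27 ± 0.44 in MACS-sorted DRG, differences of 1.30 (standard error 0.24) and 1.01 (0.23). Each of these 4 differences had an exact two-sided permutation p of 0.0286 (n = 4 and 4), the smallest possible, and 0.103 after Benjamini-Hochberg adjustment over the 18 ratio tests, of which 0 passed 0.05 and 5 had an unadjusted p under 0.05. The fifth was Oprk1 to Oprl1 in MACS-sorted against intact DRG, with a difference of 0.93. With only 5 of 18 tests at the smallest possible p none could pass, so the adjustment cannot decide whether these ratios differ.

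The ratio of Oprd1 to Oprl1 showed no detectable difference between preparations. Oprd1 encodes the delta and Oprl1 the nociceptin receptor, and their log2 ratio was -0.89 ± 0.17 (SD, n = 4) in intact DRG, -0.84 ± 0.10 in unsorted DRG and -0.81 ± 0.11 after MACS sorting. MACS-sorted and unsorted DRG differed by 0.04 (standard error 0.075, exact permutation p = 0.6, n = 4 and 4), while the genes themselves differed by -1.14 and -1.18. Under quantile normalization these gene differences drew apart, to -0.70 for Oprd1 and -0.88 for Oprl1, and to -0.20 and -0.53 in MACS-sorted against intact DRG. Within MACS-sorted DRG the other pair, Oprm1 and Oprk1, varied most between samples, and in the same order, with replicate 3 highest and replicate 4 lowest for both. Their log2 ratio there had an SD of 0.17, against an observed coefficient of variation of 22.9% for Oprm1 and 38.7% for Oprk1, where the counting error estimated from depth was 8.27% and 15.6%.

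**Figure D4:**
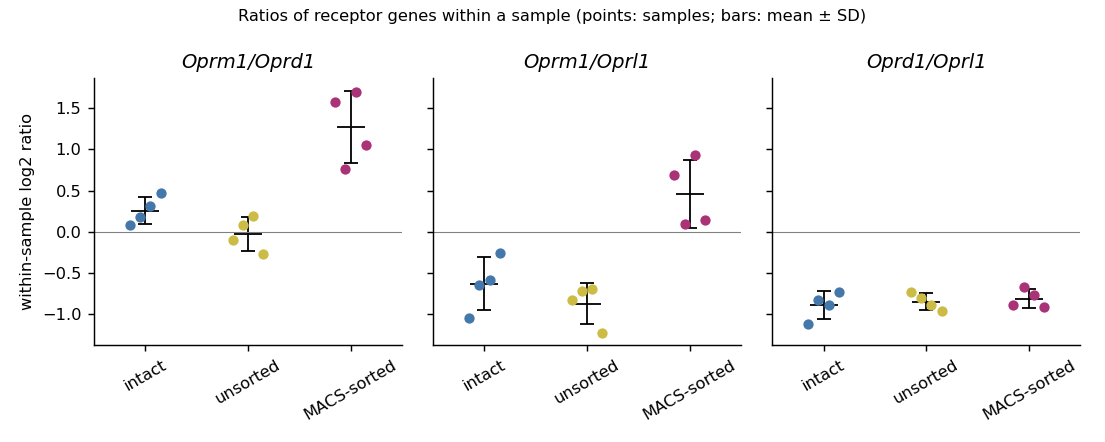
Log2 ratios of FPKM + 0.1 between receptor genes within each sample, with group means ± SD of 4 and a line at equal levels. Oprm1/Oprd1 and Oprm1/Oprl1 are higher in all 4 MACS-sorted samples than in any other, and Oprd1/Oprl1 stays between -1.12 and -0.67 in all 12.

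Relative to pan-neuronal markers, Oprd1 and Oprl1 were lower in every MACS-sorted sample than in any unsorted or intact one, but none of the 12 tests passed after adjustment. The level of each receptor gene was set against the mean log2 level of 8 pan-neuronal markers, such as Uchl1, Tubb3 and Stmn2. In MACS-sorted against unsorted DRG 2 of the 8 rose and 3 fell, Map2 (-1.77) and Snap25 (-0.94) among the latter. That mean itself differed by -0.17 between MACS-sorted and unsorted DRG and was 0.27 higher in unsorted than in intact DRG (exact permutation p = 0.0286 each, n = 4 and 4). The fall of the mean leaned on Map2, and the median log2-fold change of the list was 0.18. Sorted samples were thus not lower in most of these markers, and the mean remained the reference. Against that mean, the difference between MACS-sorted and unsorted DRG was -1.01 for Oprl1 (standard error 0.095) and -0.97 for Oprd1 (0.11). In MACS-sorted against intact DRG the values were -0.95 for Oprl1 and -0.87 for Oprd1. All 4 had an exact permutation p of 0.0286 (n = 4 and 4) and 0.0857 after adjustment over the 12 tests. That p is the smallest these sample numbers allow. With only 4 of 12 tests at it none could pass, so the adjustment cannot decide whether these levels differ. Oprm1 was 0.32 higher than in unsorted DRG (0.20, exact permutation p = 0.171, n = 4 and 4). Between unsorted and intact DRG the differences were 0.10 for Oprd1 and 0.06 for Oprl1.

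Markers of large-diameter neurons fell in the same comparison as Oprd1 and Oprl1, while those of non-peptidergic nociceptors mostly rose. All 11 large-diameter neuron markers fell in MACS-sorted against unsorted DRG (median log2-fold change -2.62), among them Nefh (a neurofilament of myelinated neurons), Pvalb (of proprioceptors) and Spp1, and their summed level was 108 to 192 FPKM against 947 to 1159. Of 7 non-peptidergic nociceptor markers 6 rose (median 0.90), with Scn11a, Ret and P2rx3 the most abundant. Of 6 peptidergic markers 3 rose and 1 fell, and Calca, the most abundant, differed by -0.13 (limma adjusted p = 0.461). All 6 satellite glia markers fell (median -5.48), as did 5 of 6 Schwann cell and 5 of 6 fibroblast markers, 2 of 6 endothelial and mural markers and the 1 macrophage marker tested, and all 6 red blood cell rows tested rose (median 4.39). Of the endothelial and mural markers Acta2 and Pdgfrb fell, while Pecam1, Cdh5, Kdr and Cldn5 did not pass the test (limma adjusted p from 0.20 to 0.95). No marker was at 0 in all MACS-sorted samples except 2 rows of the globin gene Hba-a1, which are listed at 0 in every sample. In unsorted against intact DRG, where no receptor gene passed the test, 9 of 11 large-diameter, 5 of 6 endothelial and mural, 4 of 8 pan-neuronal, 3 of 7 non-peptidergic, 2 of 6 satellite glia and 1 of 6 peptidergic markers rose, and 6 of 6 fibroblast and 3 of 6 macrophage markers fell. The part of these markers in the receptor values was not tested.

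The genes whose profile over the 12 samples was most like that of each receptor gene were ranked by the root mean square difference of their centred log2 values among the genes that averaged 1 FPKM or more. For Oprd1 the nearest of 12282 genes was Oprl1, at 0.118, against a profile size of 0.526 for Oprd1 itself. It was followed by Adcy8, an adenylyl cyclase, at 0.146, then Gpr153, Acsl6 and Nefl at 0.154 to 0.155. For Oprl1 the nearest were Nefl, the light neurofilament subunit, at 0.108, Tubgcp4 at 0.112, Agpat3 at 0.117, Oprd1 at 0.118 and Snap25, a synaptic membrane fusion protein that is also 1 of the 8 pan-neuronal markers, at 0.130, against a profile size of 0.519. Nefl had a mean of 1594 FPKM in intact DRG, 2001 in unsorted DRG and 879 after MACS sorting. For Oprm1 the nearest were Kif26b, Peg3, Tpr, Akap9 and Cep250 at 0.169 to 0.195, and for Oprk1 Pik3r1, Ero1l, Zfp516, Ampd3 and Lrrc58 at 0.160 to 0.184, but the profiles of these 2 receptor genes were themselves only 0.356 and 0.303 in size, so these likenesses say little. The 12 samples share their preparation within a group, and these distances are descriptions.

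Of the 4 peptide precursor genes only Penk, which encodes the enkephalins, passed the filter, with 2.25 ± 1.06 FPKM (SD, n = 4) in intact DRG, 2.89 ± 1.11 in unsorted DRG and 2.08 ± 0.923 after MACS sorting (log2-fold change -0.47 in MACS-sorted against unsorted, limma adjusted p = 0.377). Pdyn, the dynorphin precursor, averaged 0.168, 0.101 and 0.0740 FPKM in the 3 preparations, and Pnoc, the precursor of nociceptin, 0.281, 0.109 and 0.0582. Pomc, which gives beta-endorphin, averaged 0.497, 0.516 and 1.20 FPKM and was below the filter. Under quantile normalization it was tested and higher in MACS-sorted than in unsorted DRG by 1.53 on the log2 scale (limma adjusted p = 0.00922). It passed the filter there only in comparisons with the MACS-sorted group, where it was highest, so the call depends on that group.

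Enzymes that make or break down opioid peptides changed in both directions. Of 7 tested, 3 fell in MACS-sorted against unsorted DRG and 1 rose, where 27.7% of all genes tested fell and 18.8% rose. Mme, or neprilysin, which cleaves enkephalins, fell from 6.08 ± 1.11 to 0.512 ± 0.261 FPKM (SD, n = 4), a log2-fold change of -3.42 (limma adjusted p = 1.7e-05). Pcsk1, a proprotein convertase, fell from 25.0 ± 2.03 to 6.45 ± 0.984 FPKM (-1.95, adjusted p = 2.1e-06), and Ace from 1.69 to 0.474 FPKM (-1.67). Dpp3, a dipeptidyl peptidase, rose from 31.0 to 41.7 FPKM (0.42, adjusted p = 0.0172). The related convertase Pcsk2 differed by -0.27 (limma adjusted p = 0.149).

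Receptor kinases, arrestins and Rgs genes, which end the receptor signal, mostly rose in MACS-sorted against unsorted DRG, where 18.8% of all genes rose and 27.7% fell. Of 5 inhibitory G protein alpha subunits, which carry the signal, 2 rose and 1 fell. Gnao1 rose from 251 ± 12.3 to 441 ± 73.5 FPKM (SD, n = 4; log2-fold change 0.80, limma adjusted p = 5.5e-04) and Gnai2 rose by 0.38, while Gnai1 fell from 48.5 ± 4.14 to 19.6 ± 1.60 FPKM (-1.31, adjusted p = 3.1e-06). Of 6 receptor kinases and arrestins, which phosphorylate and uncouple active receptors, 5 rose and 0 fell (median 0.52). Adrbk1, the receptor kinase also called Grk2, rose from 59.1 ± 3.42 to 103 ± 15.0 FPKM (0.80, adjusted p = 1.8e-04), Adrbk2 by 0.71 and Grk5 by 0.53. Of 9 Rgs genes, whose products speed the shutdown of inhibitory G proteins, 6 rose and 1 fell (median 0.86). Rgs8 rose from 10.3 ± 0.593 to 28.9 ± 4.58 FPKM (1.46), Rgs10 from 112 to 278 FPKM (1.30) and Rgs4 from 377 to 815 FPKM (1.11), and Rgs9 fell from 2.22 to 1.00 FPKM (-1.06, limma adjusted p = 0.00175), a call lost under quantile normalization (adjusted p = 0.0556).

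The effectors of the receptors moved in different directions. Of 8 adenylyl cyclases 6 fell and 0 rose (median -1.05). Adcy1 fell from 8.20 ± 0.397 to 2.78 ± 0.335 FPKM (SD, n = 4; log2-fold change -1.53), Adcy3 from 6.62 to 2.56 FPKM (-1.34) and Adcy8 from 2.64 to 1.20 FPKM (-1.09, limma adjusted p = 5.6e-04). Under quantile normalization 5 cyclases fell and 2, Adcy5 and Adcy6, rose. Cacna1b, the N-type presynaptic calcium channel subunit, rose from 17.9 to 25.9 FPKM (0.52, limma adjusted p = 0.00285), and Cacna1a differed by -0.23 (adjusted p = 0.0593). Of the potassium channels opened by the receptors, Kcnj3 fell from 7.51 to 4.76 FPKM (-0.65) and Kcnj6 rose from 0.548 to 1.64 FPKM (1.27, limma adjusted p = 0.0426), with groups that overlapped. Kcnj6 averaged 0.694 FPKM in intact DRG and passed the filter only with the MACS-sorted group, where it was highest, in the fit. Its call thus depends on that group, and it was not tested in unsorted against intact DRG. Of 2 trafficking partners tested, 0 passed, though Gprasp1, which takes part in receptor sorting, rose under all 3 other scalings (limma adjusted p = 0.0229 to 0.0467) and Rtp4 under quantile normalization (adjusted p = 0.0354). Among 17 other receptors that couple to inhibitory G proteins, 3 rose and 5 fell. These counts were near the shares of all genes tested, of which 18.8% rose and 27.7% fell. Chrm2 (muscarinic), Adra2c and Adra2a (adrenergic) fell by 2.06, 1.94 and 1.88 on the log2 scale, and Npy2r, Chrm4 and Adora1 rose by 0.84, 0.53 and 0.29. Galr1, Sstr2 and Npy1r, other inhibitory receptors of peptides, did not pass the test, with limma adjusted p from 0.18 to 0.95. Under quantile normalization 6 of 18 tested rose and 5 fell, and the list median turned from -0.23 to 0.11.

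**Figure D5:**
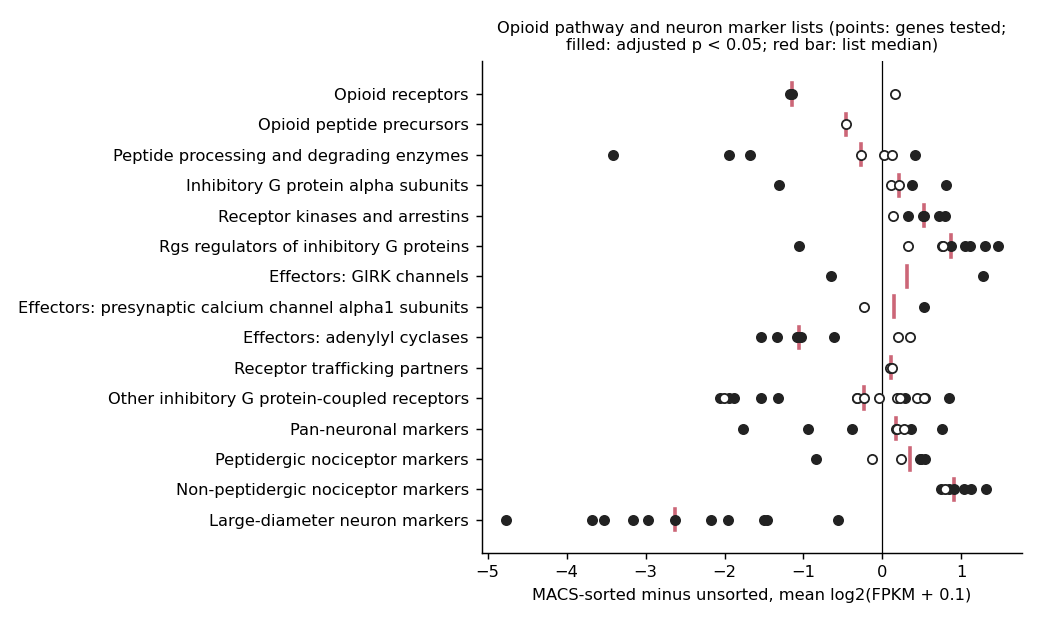
Difference in mean log2(FPKM + 0.1) between MACS-sorted and unsorted DRG for each tested gene of the opioid pathway lists and 4 neuron marker lists, with filled points at an adjusted p under 0.05 and a red bar at the list median. The adenylyl cyclases (median -1.05) and large-diameter markers (-2.62) lie to the left of 0, the Rgs genes (0.86) and receptor kinases and arrestins (0.52) to the right.

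In the genome, 3 of the 4 receptor genes have a gene of the RZ group of Rgs proteins among their nearest listed neighbours. Rgs19, 21039 bases from Oprl1, rose from 4.36 ± 0.307 to 7.39 ± 0.576 FPKM (SD, n = 4) in MACS-sorted against unsorted DRG, a log2-fold change of 0.75 (limma adjusted p = 1.6e-04), where Oprl1 fell by 1.18. On its other side Myt1, a neural zinc finger factor 42347 bases away, rose from 12.2 to 26.2 FPKM (1.09, limma adjusted p = 1.2e-05). Rgs17, 866201 bases from Oprm1, rose from 9.11 ± 0.609 to 16.7 ± 1.34 FPKM (0.86, adjusted p = 3.3e-05). Rgs20, 518208 bases from Oprk1, averaged 1.07 ± 0.126 and 0.719 ± 0.424 FPKM and was below the filter, as was Oprk1. Next to Oprd1, Ythdf2, an RNA-binding protein gene, rose by 0.37 (limma adjusted p = 0.00969) and Epb4.1, a membrane skeleton gene of red blood cells, by 1.47 (adjusted p = 0.0121), while Oprd1 fell by 1.14. The other neighbours of Oprd1 had lower means in MACS-sorted DRG, with Rps15a-ps4 at 4.14 and 3.08 FPKM (-0.38, limma adjusted p = 0.141) and Tmem200b, below the filter, at 0.924 and 0.263 FPKM in unsorted and MACS-sorted DRG.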

How the data were processed

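The authors aligned 100-base reads of polyA-selected RNA to mm10 with TopHat2, allowing 2 alignments per read, merged lanes with SAMtools and estimated expression with Cufflinks 2.1.1, and they deposited each gene's FPKM in every sample. No counts were used. Depth was estimated from the spacing of low FPKM values with an assumed fragment length of 150 bases, so fragment numbers are estimates.

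Groups were compared with limma 3.58.1 (R 4.3.3) after adding 0.1 to FPKM and taking log2, with the prior variance following intensity, in genes averaging 1 FPKM or more across the 8 samples compared, with two-sided tests and Benjamini-Hochberg adjustment over all genes tested. The procedure was tested on simulated data. Limma replaced the CuffDiff of the study, which needs reads. Ratios and single values were compared by exact two-sided permutation tests, which cannot go below 0.0286 here. Alternatives covered pseudocounts, filters, scalings, a block for replicate numbers and left-out samples. Named were the 4 members, list genes past an adjusted p of 0.05 with the largest changes (up to 3 per direction), the precursors, the most abundant markers, the 5 most alike genes and genomic neighbours. Any other gene was picked with its values in view. The members and lists were chosen with earlier results of these data known.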

Additional observations from a re-analysis of the deposited data

Results flagged for a closer look

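In a group of 4 samples, a value was picked out when its gap to the nearest other sample, divided by the range of the group, exceeded Dixon's 95% critical value. Of 12 groups (4 genes in 3 preparations), 2 were picked out, both for Oprd1, and chance picks out about 1 in 20. In intact DRG the ratio was 0.87, where replicate 1 measured 1.95 FPKM and the other samples 3.36 to 3.57. In MACS-sorted DRG it was 0.906, where replicate 2 measured 2.17 FPKM and the others 1.56 to 1.62. Without MACS-sorted replicate 2, the log2-fold change of Oprd1 against unsorted DRG was -1.24 (limma adjusted p = 4.7e-05).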

How the results depend on the processing

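Oprd1 and Oprl1 stayed lower in MACS-sorted than in unsorted DRG, with an adjusted p under 0.05 by limma, in all 18 and 19 alternatives run, with estimates from -1.24 to -0.70 and from -1.23 to -0.88, and Oprl1 stayed lower than in intact DRG in all 17 (-0.97 to -0.53). For the filter at 5 FPKM, only Oprl1 passed, and in MACS-sorted against intact DRG no receptor gene did. Replicate numbers are shared between groups but did not pair the samples (correlations of deviations from -0.143 to 0.067), and with a replicate block the same calls were made, with an Oprl1 adjusted p of 4.1e-04 and an Oprd1 adjusted p of 0.00113 in MACS-sorted against unsorted DRG. Quantile normalization moved the median of all genes by 0.14 in MACS-sorted against unsorted and by 0.17 against intact DRG, and the share of calls that were higher in MACS-sorted DRG from 40.4% to 59.3% and from 40.6% to 60.3%. It left 1 receptor call against intact DRG in place of 2, with Oprd1 at -0.20 (adjusted p = 0.557), or -0.32 relative to the median of all genes, and moved Oprk1 to 0.41, 0.60 and 1.01 in MACS-sorted against unsorted, unsorted against intact and MACS-sorted against intact DRG. The cause was not tested.

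With single samples left out, Oprd1 in MACS-sorted against intact DRG ran from -0.97 to -0.69 and the number of receptor calls from 1 to 2. Oprm1 ran from -0.17 to 0.23 in unsorted against intact and from -0.014 to 0.38 in MACS-sorted against intact DRG, without a call, and Oprk1 from -0.10 to 0.24 in the latter. Ratios near 0 changed sign. In unsorted against intact DRG, Oprd1/Oprk1 ran from -0.10 to 0.19, Oprd1/Oprl1 from -0.033 to 0.099 and Oprk1/Oprl1 from -0.19 to 0.069 (0.015 with a pseudocount of 0.01). Oprm1/Oprk1 in MACS-sorted against intact DRG ran from -0.065 to 0.31 and Oprd1/Oprl1 in MACS-sorted against unsorted DRG from -0.011 to 0.074. Relative to pan-neuronal markers, Oprk1 ran from -0.24 to 0.090 in MACS-sorted against unsorted (0.061 with a pseudocount of 1), from -0.073 to 0.10 in unsorted against intact (-0.12 with a pseudocount of 1) and from -0.21 to 0.13 in MACS-sorted against intact DRG. Oprd1 and Oprl1 ran from -0.054 to 0.17 and from -0.021 to 0.13 in unsorted against intact, and Oprm1 from -0.072 to 0.26 in MACS-sorted against intact DRG. After the data were seen, the lists were also counted under the other scalings, in which all 6 receptor kinases and arrestins, in place of 5, and 7 or 8 Rgs genes, in place of 6, rose. Trafficking partners gained calls there too, as did Pomc, which passed the filter only with the MACS-sorted group in the fit. The 27 to 76 fragments estimated behind each Oprk1 value limit what can be said of it.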
